A study of Mus musculus with 8 samples.

Results

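CC chemokines are described here through 8 genes, Ccl2, Ccl3, Ccl4, Ccl5, Ccl6, Ccl7, Ccl9 and Ccl12. Their probe sets were taken by gene symbol in the array's annotation, with no measured value used in that step. The genes themselves were chosen with earlier results of these data known. Each gene had 1 probe set, which gave 8 of the 12422 probe sets tested and 8 of the 8251 genes named on the array. The RNA came from CD8+ dendritic cells of the spleen of 60-day-old female DBA/2J mice, a subset that presents antigen to T cells, and every group, controls included, came from mice treated with Flt3 ligand (10 µg, 9 days), which increases dendritic cell numbers. Culture was in medium alone for 4 hours, in medium alone for 16 hours, with mouse interferon gamma (IFN-γ, 200 U/ml) for 4 hours, or with the same IFN-γ for 16 hours. Each of these 4 groups had 2 Affymetrix arrays. Whether the 2 arrays in each group represent different animals or cultures is not given in the labels, so a p-value here reflects array-to-array spread that could be technical, and the small number of arrays limits the precision.

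CC chemokines are small secreted proteins, named for a pair of adjacent cysteines, that bind G protein-coupled receptors on leukocytes and direct their migration. Ccl2, Ccl7 and Ccl12 encode monocyte chemoattractants whose main receptor is CCR2. Ccl6 and Ccl9 encode chemokines of myeloid cells that act through CCR1. Ccl3, Ccl4 and Ccl5 encode inflammatory chemokines that attract T cells and monocytes, and the Ccl3 and Ccl5 products bind CCR1. Dendritic cells and macrophages are known sources of several of these proteins, and IFN-γ is a known regulator of chemokine genes in both.

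All values below are log2 of the deposited intensity. The median of 15 antisense control probe sets on the same array, between 44.9 and 61.2 in intensity and between 5.49 and 5.93 on the log2 scale, served as a measure of unspecific signal. Ccl3, Ccl4, Ccl5, Ccl6 and Ccl9 lay above it on all 8 arrays, and Ccl2 on 7. Ccl7 and Ccl12 lay below it on all 8, so the size of their differences is uncertain. Median intensity over the tested probe sets lay between 51.3 and 53.7 on the 8 arrays. RNA quality was read from the Actb probe sets at each transcript end, whose 3'/5' ratio was 2.04 and 2.20 on the 4-hour medium arrays against 1.47 to 1.68 elsewhere. Means of 8 of 10 measured markers of CD8+ dendritic cells were above the antisense level in medium at 16 hours. In its brightest group Irf8 lay 5.03 above that level, Id2 4.46, Flt3 3.64, Cd8a 3.38 and Batf3 3.26. For Cd24a the value was 2.97, for Ly75 2.43, for Itgax 0.79 and for Xcr1 0.01, while Zbtb46 was below that level in all 4 groups. Means of 11 of 15 macrophage or monocyte markers, 6 of 6 B cell markers and 8 of 8 neutrophil markers were also above it in medium at 16 hours. So were 6 of 6 T cell, 3 of 3 plasmacytoid dendritic cell and 2 of 5 NK cell markers. For mast cell or basophil markers the count was 3 of 7, and for erythroid markers 1 of 3. The T cell markers lay 0.89 (Cd28) to 2.68 (Cd3g) above the antisense level in their brightest groups. The part of T cells in the CC chemokine results was not tested. In bulk RNA of this kind, fewer cells of a type and less RNA per cell cannot be told apart.

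**Figure D1:**
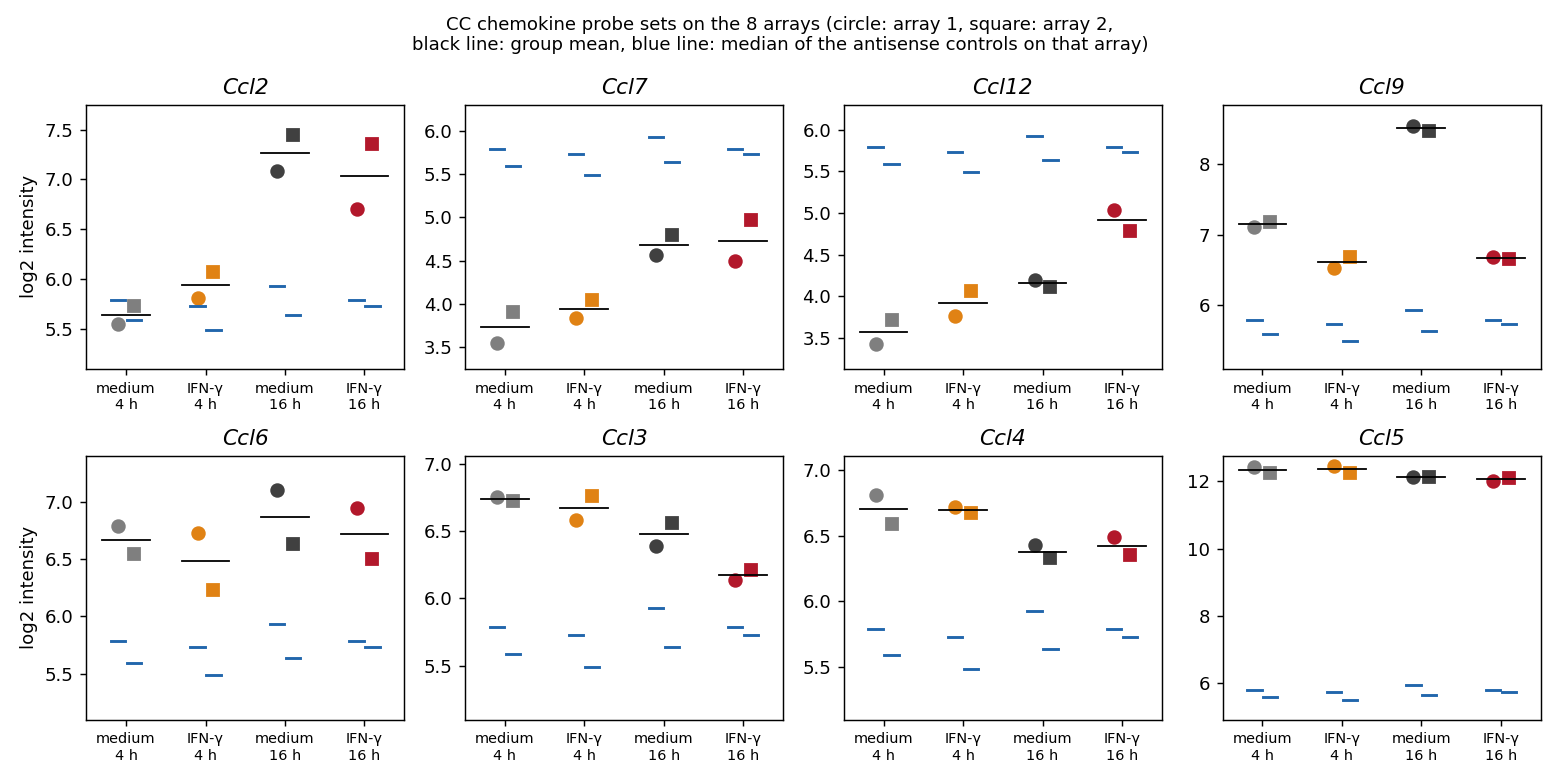
Log2 intensity of each CC chemokine probe set on every array, with circles for array 1, squares for array 2, a black line for the group mean and a short blue line for the median of the antisense controls on that array; the vertical axes differ between genes. Ccl9 is highest in medium at 16 hours (8.54 and 8.47), Ccl2 and Ccl7 are higher at 16 than at 4 hours in both media, and Ccl7 and Ccl12 stay below the blue lines.

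The clearest response to IFN-γ was that of Ccl9. On the arrays of medium at 4 hours it read 7.11 and 7.18, and with IFN-γ at 4 hours 6.53 and 6.69. After 16 hours the readings were 8.54 and 8.47 (medium), 6.69 and 6.65 (IFN-γ). In words, Ccl9 climbed during culture in medium alone and stayed low on all 4 IFN-γ arrays, with no overlap between IFN-γ and medium at either time. At 16 hours it was 3.56-fold lower with IFN-γ (mean 6.67 ± 0.03 against 8.51 ± 0.05, SD, n = 2 per group; log2 difference -1.83, SE 0.11, 95% interval -2.08 to -1.59; adjusted p = 0.000200, limma with Benjamini-Hochberg adjustment over all 12422 probe sets). This was the lowest of the 12422 differences at 16 hours. Ccl9 was the only CC chemokine of the 8 that fell with IFN-γ at 16 hours and none rose, against 0.0966% of all probe sets called lower and 0.161% called higher at an adjusted p under 0.05. With the replicate number as a block, a fit that compares arrays of the same number with each other, 1 fell (Ccl9) and 1 rose (Ccl12), against 0.435% and 0.411%.

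At 4 hours the Ccl9 difference was -0.53 (SE 0.11), which did not pass the test (adjusted p = 0.150 by limma) and passed with the block (adjusted p = 0.0266). In medium, Ccl9 rose 2.57-fold between 4 and 16 hours (log2 difference 1.36, SE 0.11, adjusted p = 0.000465). With IFN-γ, the difference between the times was 0.06 (SE 0.11, 95% interval -0.19 to 0.31, adjusted p = 0.822). The order of its group means was IFN-γ at 4 hours (6.61), IFN-γ at 16 hours (6.67), medium at 4 hours (7.14) and medium at 16 hours (8.51), and only the first pair of neighbours overlapped. The IFN-γ effect at 16 hours minus that at 4 hours, which is also the time difference with IFN-γ minus that in medium, was -1.30 (SE 0.15), with an adjusted p of 0.158 by limma and 0.00852 with the block. Limma called 0% of all probe sets for this difference of effects, 2.84% had an unadjusted p under 0.05, and the block called 0.242%, all lower. Whichever single array was left out, Ccl9 remained called at 16 hours and over time in medium, with adjusted p-values between 0.000584 and 0.00331 for the first and between 0.000373 and 0.0142 for the second.

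The sequence around the start of Ccl9 is shown because this gene had the lowest IFN-γ difference at 16 hours. It is the RefSeq window from 250 bases before to 50 after the gene start, of build GRCm38.p6 (strain C57BL/6J, not the DBA/2J of these mice), at chr11:83578587-83578886 on the minus strand. Capitals mark matches to the motifs reported here.

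Ccl9: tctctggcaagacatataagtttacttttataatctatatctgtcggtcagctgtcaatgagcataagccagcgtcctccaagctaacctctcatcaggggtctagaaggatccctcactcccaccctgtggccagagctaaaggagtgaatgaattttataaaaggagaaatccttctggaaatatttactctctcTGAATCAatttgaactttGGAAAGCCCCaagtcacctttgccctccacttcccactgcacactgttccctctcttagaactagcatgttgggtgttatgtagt

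The motifs reported came out of a longer search on both strands. They were the interferon-response form (GAAA, any 2 bases, GAAA), a loose NF-κB form (GGG, any 5 bases, CC) and TGANTCA. The last is a loose AP-1 form that allows any base in the middle. In the Ccl9 window the capitals are TGAATCA, beginning 53 bases before the start, and GGAAAGCCCC, a reverse-strand match to the NF-κB form beginning 35 bases before it. No match to the interferon-response form was found in this window, which says only that these letters are not there. Over 32851 RefSeq windows of the same length, 3.4% held the interferon-response form, 50.8% the NF-κB form and 7.8% TGANTCA. Of the 8 genes, 4 have such a window in the table used (Ccl3, Ccl6, Ccl9 and Ccl12), and those of Ccl3, Ccl6 and Ccl12 held no match to any of the 3 motifs.

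Ccl6, whose product like that of Ccl9 acts on CCR1 and whose gene lies next to Ccl9, passed the test in no comparison, with or without the block. It read 6.79 and 6.54 on the 4-hour medium arrays, 6.73 and 6.23 on those with IFN-γ. Its 16-hour values were 7.10 and 6.63 without IFN-γ, 6.94 and 6.50 with it. The groups overlapped in every comparison, while array 1 was above array 2 in all 4 groups, by 0.25 to 0.50. The IFN-γ differences were -0.18 (SE 0.22) at 4 hours and -0.15 (95% interval -0.65 to 0.35) at 16 hours. The difference over time in medium was 0.20 (SE 0.22, adjusted p = 0.699).

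Among the CCR2 ligands, Ccl2 rose with time in culture and showed no called difference between IFN-γ and medium. It read 5.55 and 5.73 on the 4-hour medium arrays, 5.81 and 6.07 on those with IFN-γ. The 16-hour arrays gave 7.08 and 7.45 without IFN-γ, 6.70 and 7.36 with it. All 4 arrays at 16 hours were thus above all 4 at 4 hours, and at 16 hours the IFN-γ arrays overlapped those of medium. In medium it rose by 1.63 on the log2 scale (SE 0.22, adjusted p = 0.00496, limma). Its mean at 4 hours was at the antisense level (5.64 against 5.69), so the size of the rise is uncertain. The call was lost without array 1 of medium at 4 hours (1.53, adjusted p = 0.0669). With IFN-γ it rose 2.13-fold (1.09, SE 0.22, adjusted p = 0.0385), a call lost without IFN-γ array 1 at 4 hours (0.96, adjusted p = 0.267) or array 2 (1.22, adjusted p = 0.179), and without either array of medium at 4 hours (adjusted p = 0.0779 each), which enter this comparison only through the spread. It was also lost with median centring (1.06, adjusted p = 0.0573) and when only the 4 IFN-γ arrays were fitted (1.09, adjusted p = 0.0522). The IFN-γ differences of Ccl2 were 0.30 (SE 0.22) at 4 hours and -0.24 (SE 0.22, 95% interval -0.73 to 0.25) at 16 hours, and the difference of these effects was -0.54 (SE 0.31, adjusted p = 1.0).

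In medium, 3 of the 8 CC chemokines rose between 4 and 16 hours, Ccl2, Ccl7 and Ccl9, and 0 fell, against 1.71% of all probe sets called higher and 2.57% called lower. With the block 4 rose and 1 fell, against 4.52% and 8.09%. The median difference of the 8 was 0.39, beside 0.05 over all probe sets. With IFN-γ, 2 rose, Ccl2 and Ccl12, and 0 fell, against 0.821% called higher and 1.30% lower, or 3 and 1 with the block, against 3.20% and 6.94%. The median of the 8 was 0.15 there, again beside 0.05 over all probe sets. Groups did not overlap for 4 of the 8 upward and 3 downward in medium, against 30.8% and 20.8% of all probe sets, and for 3 and 3 with IFN-γ, against 21.6% and 17.7%. The comparisons over time use the same arrays as those of IFN-γ against medium.

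**Figure D2:**
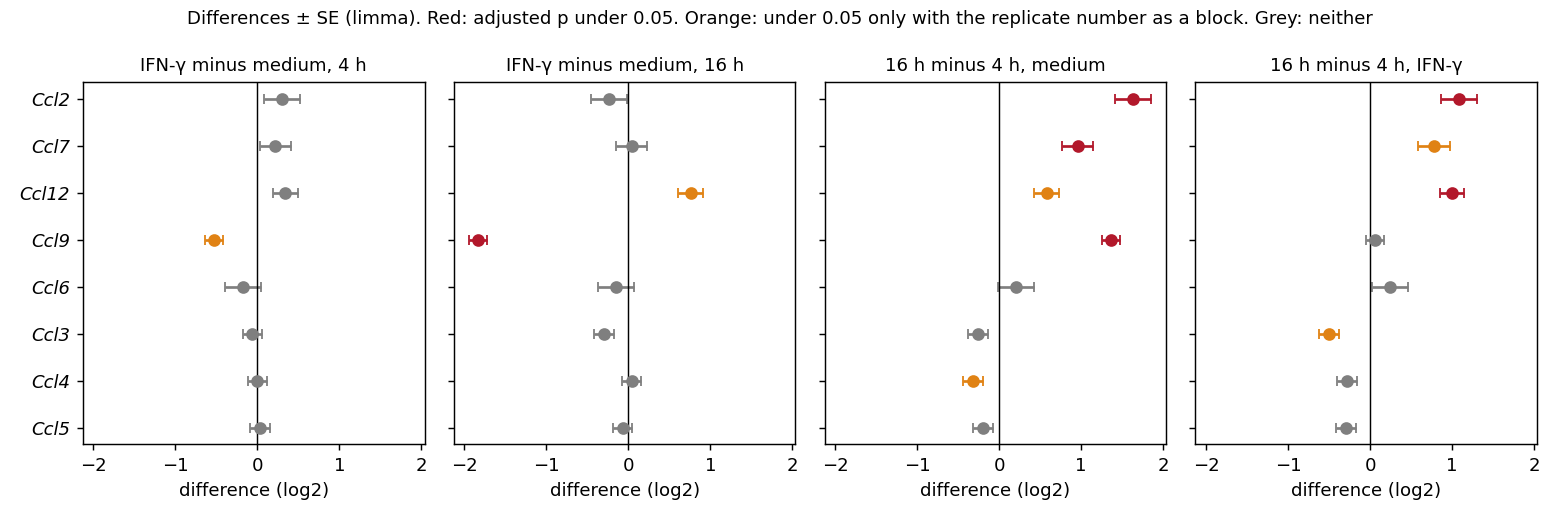
Log2 differences of the 8 CC chemokines in 4 comparisons, with bars of 1 SE from limma; red points have an adjusted p under 0.05, orange points pass only with the replicate number as a block, and grey points pass neither. Ccl9 is red and to the left at 16 hours (-1.83) and red and to the right over time in medium (1.36), while Ccl5 is grey in all 4 panels.

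Ccl7, which encodes another monocyte chemoattractant, read 3.55 and 3.91 on the 4-hour medium arrays, 3.84 and 4.05 on those with IFN-γ. After 16 hours the readings were 4.57 and 4.80 (medium), 4.49 and 4.97 (IFN-γ). As with Ccl2, all arrays at 16 hours were above all arrays at 4 hours, and array 2 was above array 1 in all 4 groups. In medium it rose by 0.96 on the log2 scale (SE 0.19, adjusted p = 0.0249), below the antisense level throughout. The call was lost without array 1 (0.78, adjusted p = 0.214) or array 2 (1.13, adjusted p = 0.0832) of medium at 4 hours, without array 1 (1.07, adjusted p = 0.0648) or array 2 (0.84, adjusted p = 0.116) of medium at 16 hours, and with quantile normalization (0.86, adjusted p = 0.0637). With IFN-γ the time difference was 0.78 (SE 0.19, adjusted p = 0.0730, or 0.00119 with the block, and 1.02 with adjusted p = 0.0307 without IFN-γ array 1 at 16 hours). The IFN-γ differences were 0.22 at 4 hours and 0.04 at 16 hours (SE 0.19 each).

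Ccl12, the third monocyte chemoattractant, was highest with IFN-γ at 16 hours. It read 3.43 and 3.72 on the 4-hour medium arrays, 3.77 and 4.06 on those with IFN-γ. Its 16-hour values were 4.20 and 4.11 without IFN-γ, 5.04 and 4.79 with it. The IFN-γ arrays were above the medium arrays at both times, without overlap. At 4 hours, where groups did not overlap for 2 of the 8 genes upward and 1 downward, 15.4% and 17.9% of all probe sets did the same. At 16 hours those counts were 1 upward and 3 downward, against 9.10% and 9.85%.

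The IFN-γ difference of Ccl12 at 16 hours was 0.76 (SE 0.15), with an adjusted p of 0.149 by limma and 0.0338 with the block. At 4 hours it was 0.34 (SE 0.15, adjusted p = 1.0). With IFN-γ, Ccl12 rose between 4 and 16 hours by 1.0 on the log2 scale (SE 0.15, adjusted p = 0.0136), a call lost without IFN-γ array 1 (0.85, adjusted p = 0.147) or array 2 (1.14, adjusted p = 0.0704) at 4 hours. In medium its time difference was 0.58 (SE 0.15, adjusted p = 0.0712, or 0.0205 with the block, and 0.0380 without either IFN-γ array at 16 hours). The difference between the IFN-γ effects was 0.42 (SE 0.22, adjusted p = 1.0). All these values lay below the antisense level.

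The start of Ccl12 is printed as the window of a CCR2 ligand that also rose over time, at chr11:82101595-82101894 of GRCm38.p6 on the plus strand, from the same RefSeq table. It has no capitals because none of the 3 motifs named for Ccl9 occurred in it.

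Ccl12: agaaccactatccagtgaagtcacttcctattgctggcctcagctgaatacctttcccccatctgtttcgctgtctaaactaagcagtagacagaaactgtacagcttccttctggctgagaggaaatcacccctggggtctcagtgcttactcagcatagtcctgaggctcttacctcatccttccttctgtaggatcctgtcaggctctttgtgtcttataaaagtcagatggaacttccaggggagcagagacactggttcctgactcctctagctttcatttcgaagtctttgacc

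Ccl3, Ccl4 and Ccl5 passed no test in the fit over all 12422 probe sets without the block. Ccl3 read 6.75 and 6.72 on the 4-hour medium arrays, 6.58 and 6.76 on those with IFN-γ. The 16-hour arrays gave 6.39 and 6.56 without IFN-γ, 6.14 and 6.21 with it. The arrays at 16 hours lay below those at 4 hours in both media, and at 16 hours the IFN-γ arrays lay below the medium arrays. With IFN-γ the time difference was -0.50 (SE 0.12, adjusted p = 0.0712, or 0.00877 with the block, 0.0483 without the dimmest 40% of probe sets and 0.0474 with a floor at the antisense level), and in medium -0.26 (SE 0.12, adjusted p = 0.317). The IFN-γ difference at 16 hours was -0.30 (SE 0.12, adjusted p = 1.0) and at 4 hours -0.06.

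Ccl4, which encodes the inflammatory chemokine MIP-1β, read 6.81 and 6.59 on the 4-hour medium arrays, 6.72 and 6.67 on those with IFN-γ. After 16 hours the readings were 6.43 and 6.33 (medium), 6.49 and 6.35 (IFN-γ). Medium and IFN-γ overlapped at both times, and the arrays at 16 hours were the lower ones. The time difference was -0.32 (SE 0.12) in medium, with an adjusted p of 0.206 by limma and 0.0458 with the block, and -0.28 (adjusted p = 0.344) with IFN-γ. Its IFN-γ differences were 0.00 at 4 hours and 0.04 at 16 hours, with 95% intervals of -0.27 to 0.27 and -0.23 to 0.31.

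Ccl5, which encodes the T cell and monocyte attractant RANTES, read 12.42 and 12.24 on the 4-hour medium arrays, 12.47 and 12.25 on those with IFN-γ. Its 16-hour values were 12.13 and 12.14 without IFN-γ, 12.02 and 12.11 with it. Its whole range over the 8 arrays was 0.45, with the 4-hour arrays above those at 16 hours. The time differences were -0.20 (SE 0.12, adjusted p = 0.471) in medium and -0.29 (adjusted p = 0.309) with IFN-γ. The IFN-γ differences were 0.03 at 4 hours (95% interval -0.25 to 0.30) and -0.07 at 16 hours (-0.34 to 0.20). At 4 hours limma called 0 of the 8 CC chemokines, against 0.258% of all probe sets called higher and 0% lower. An unadjusted p under 0.05 was reached by 1 of the 8 (Ccl9), against 4.02%, and the block called 0 higher and 1 lower, against 1.09% and 0.177%. The median IFN-γ difference of the 8 was 0.01 at 4 hours and -0.11 at 16 hours, beside -0.01 and 0.00 over all probe sets.

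**Figure D3:**
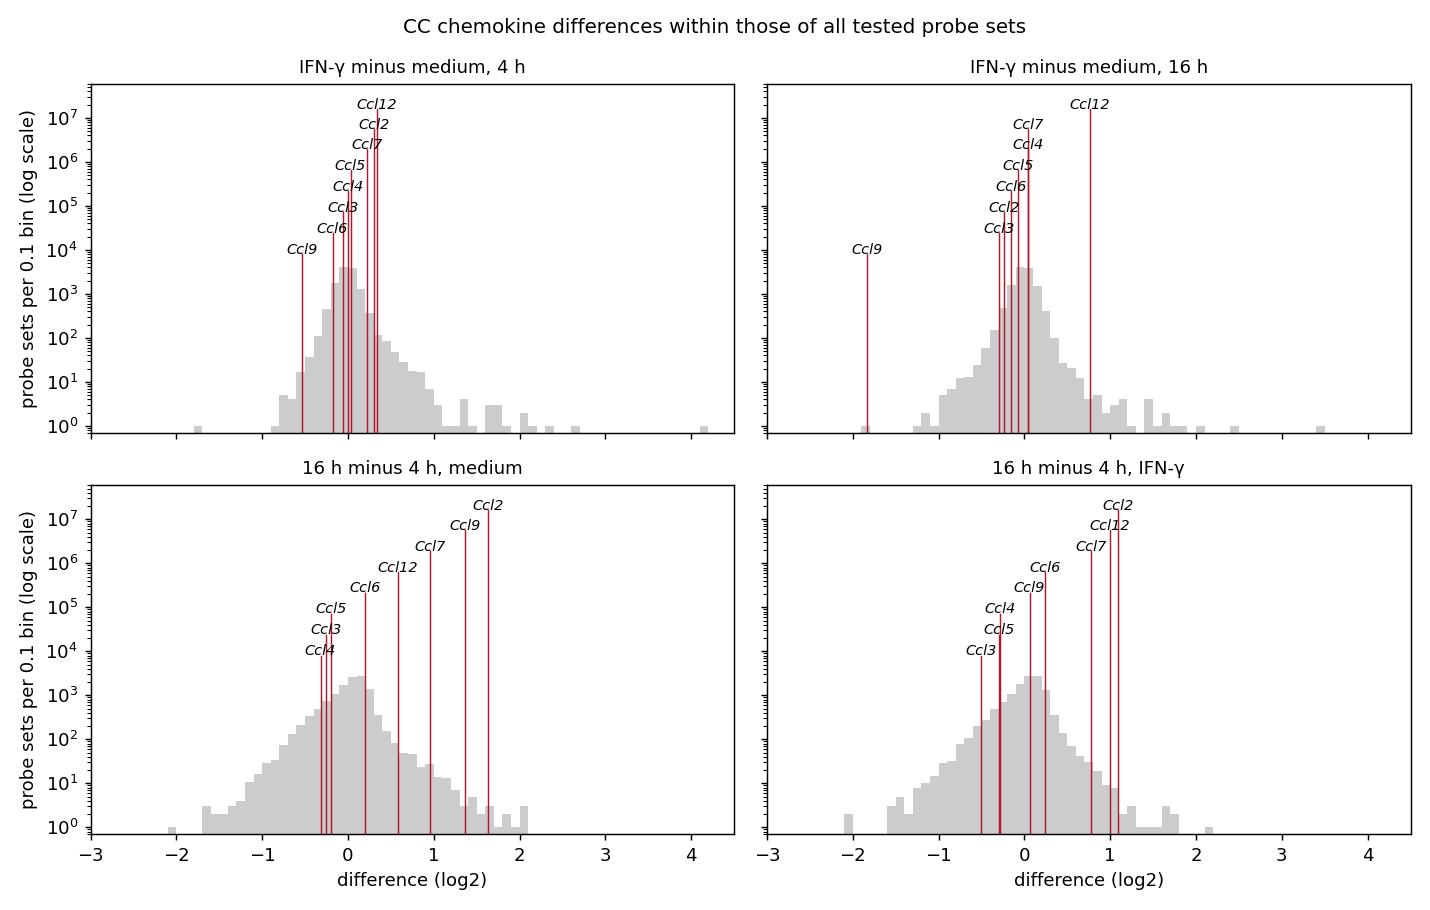
Grey bars count all 12422 tested probe sets by log2 difference in bins of 0.1 on a log scale, 1 panel per comparison; red lines mark the CC chemokines, and the height of a line only separates the names. Ccl9 lies at the far left at 16 hours (-1.83), and over time in medium Ccl2 (1.63) and Ccl9 (1.36) lie in the right tail while Ccl3, Ccl4 and Ccl5 lie left of 0.

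The receptors of these ligands were read from a list of 15 genes, 13 of which were measured, 9 with a group mean above the antisense level. In medium 2 rose with time, Ccr1 and Ccr2, and 1 fell, Ccr7. Ccr2, the receptor of the Ccl2, Ccl7 and Ccl12 products, in medium went from 6.99 and 7.25 to 7.88 and 8.32 between 4 and 16 hours (difference 0.98, SE 0.20, adjusted p = 0.0309). With IFN-γ it read 6.82 and 7.21, then 7.85 and 8.25 (1.03, adjusted p = 0.0367). It thus rose in both media, and its IFN-γ differences were -0.10 and -0.05 at 4 and 16 hours.

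Ccr1, the receptor of the Ccl6 and Ccl9 products, read 4.42 and 4.89 on the 4-hour medium arrays, 4.87 and 5.03 on those with IFN-γ. The 16-hour arrays gave 5.76 and 6.26 without IFN-γ, 5.12 and 5.60 with it. Only in medium at 16 hours was its mean above the antisense level. In medium it rose by 1.35 (SE 0.22, adjusted p = 0.0122), and the time difference with IFN-γ was 0.41 (adjusted p = 0.469, or 0.0350 with the block). Its IFN-γ difference at 16 hours was -0.65 (SE 0.22, adjusted p = 1.0, or 0.0184 in the blocked fit), while the difference of the IFN-γ effects was -0.94 (SE 0.31, adjusted p = 1.0, or 0.0388 with the block). Ccr7, the receptor that guides mature dendritic cells to lymph nodes, fell by 0.82 in medium (adjusted p = 0.0130) and by 0.94 with IFN-γ (adjusted p = 0.0115). None of the 13 receptors passed the test between IFN-γ and medium at either time, and with the block 1 did at 16 hours, Ccr1. Over time with IFN-γ 1 rose (Ccr2) and 1 fell (Ccr7), or 2 rose and 2 fell with the block.

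Of 14 other CC ligands on a list, 6 were measured, 4 of them above the antisense level in some group. Ccl22, a ligand of CCR4 made by mature dendritic cells, read 10.24 and 10.28 on the 4-hour medium arrays, 9.90 and 10.00 on those with IFN-γ. After 16 hours the readings were 8.79 and 8.85 (medium), 8.40 and 8.38 (IFN-γ). It fell over time by 1.44 in medium (adjusted p = 0.000313) and with IFN-γ the difference was -1.56 (adjusted p = 0.000208), against the direction of Ccl2. With the block Ccl17, another ligand of CCR4, also fell in both media (-0.46 in medium, adjusted p = 0.00947, and -0.39 with IFN-γ, adjusted p = 0.0232). Ccl8, a neighbour of Ccl12, read 6.29 and 6.28 on the 4-hour medium arrays, 6.40 and 6.34 on those with IFN-γ. Its 16-hour values were 6.69 and 6.70 without IFN-γ, 7.32 and 7.18 with it. Like Ccl12 it was highest on the IFN-γ arrays at 16 hours. It rose over time with IFN-γ (0.88, SE 0.11, adjusted p = 0.00510), by 0.41 in medium only with the block (adjusted p = 0.0149, or 0.0681 without it), and its IFN-γ difference at 16 hours was 0.55 (SE 0.11, adjusted p = 0.112, or 0.0184 with the block).

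**Figure D4:**
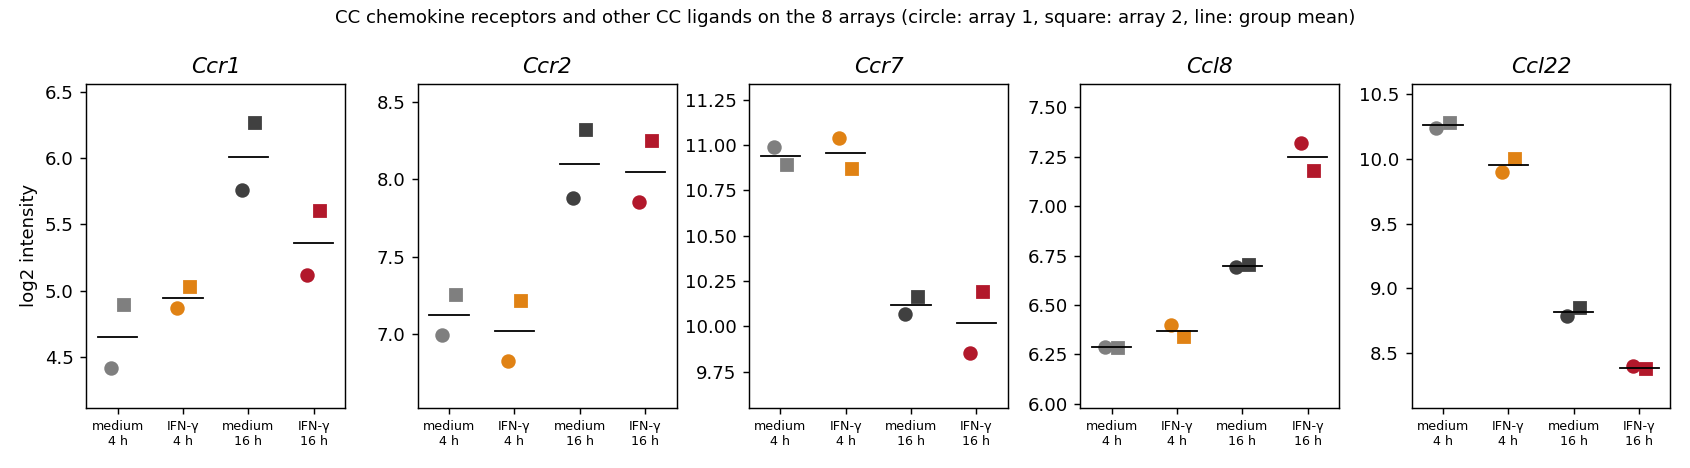
Log2 intensity on every array of 3 CC chemokine receptors and 2 further CC ligands, with circles for array 1, squares for array 2 and a line for the group mean; the vertical axes differ. Ccr1 is highest in medium at 16 hours (5.76 and 6.26), Ccr2 is higher at 16 hours in both media, Ccr7 and Ccl22 are lower there, and Ccl8 is highest with IFN-γ at 16 hours (7.32 and 7.18).

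Of 11 measured chemokine ligands of other classes, 2 rose with IFN-γ at 4 hours, Cxcl9 and Cxcl10, and 1 rose at 16 hours, Cxcl9. The size of these rises is uncertain, since both genes were below the antisense level in medium at both times. With the block 1 also fell at 4 hours, Cx3cl1 (-0.46, adjusted p = 0.0497), and 2 rose at 16 hours, Cxcl9 and Cxcl10 (0.88, adjusted p = 0.0886 without the block and 0.00490 with it). Over time 1 fell in medium, Cxcl2, and 3 fell with IFN-γ, Cxcl10 (-1.58), Cxcl9 (-1.48) and Cxcl2, which was below the antisense level at 16 hours. With the block 3 fell in medium (Cxcl9, Cxcl2 and Cxcl1), and with IFN-γ 4 fell and 1 rose. Of 16 measured genes of signalling below chemokine receptors, 0 passed limma's test between IFN-γ and medium at either time, with or without the block. Over time with IFN-γ 1 of them rose, Arrb1, an arrestin (0.57, adjusted p = 0.0390), or 3 rose and 2 fell with the block, and in medium 0 passed, or 2 rose and 2 fell with the block.

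All 8 genes lie on chromosome 11 in RefSeq's GRCm38.p6 order, in 2 runs of CC chemokine genes separated by 25 protein-coding genes. The first run is Ccl2, Ccl7, Ccl11, Ccl12, Ccl8 and Ccl1, and the second is Ccl5, Ccl9, Ccl6, Ccl3 and Ccl4. The 3 genes of the first run described here had differences over time of 0.58 to 1.63 in medium and 0.78 to 1.09 with IFN-γ, of which 2 passed the test in each. In the second run the differences over time in medium ran from -0.32 for Ccl4 to 1.36 for Ccl9. Likeness between genes was measured as the root mean square difference of their log2 values over the 8 arrays, each centred on its own mean. By this measure Ccl4 and Ccl5 were closest (0.09), followed by Ccl3 and Ccl5 (0.16) and Ccl3 and Ccl4 (0.17), 3 genes of small range, and Ccl2 and Ccl7 differed by 0.27. The widest distance was between Ccl9 and Ccl12 (0.97), and the adjacent pair Ccl9 and Ccl6 differed by 0.70.

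The 3 named genes outside the 8 that were most like each were found for members with an SD over the arrays of at least 0.3. For Ccl9 (SD 0.82) these were Emp1 (0.34), Dab2 (0.37) and Slpi (0.38), whose IFN-γ differences at 16 hours were -1.12, -0.90 and -0.82. Over time with IFN-γ these genes differed by -0.05, 0.46 and 0.46, beside 0.06 for Ccl9. For Ccl2 (SD 0.77) the 3 genes were Fcgr1 (0.20), an Fc receptor, Pla2g7 (0.24) and Adgre1 (0.24), the F4/80 antigen of macrophages. Their IFN-γ differences at 4 hours were 0.37, -0.26 and -0.33, beside 0.30 for Ccl2. For Ccl12 (SD 0.54) the 3 genes were its neighbour Ccl8 (0.18), Grina (0.22) and Il18bp (0.23), and for Ccl7 (SD 0.51) Tmem71 (0.11), Evi2a (0.13) and Cyp4v3 (0.14). Each of these distances is over 8 arrays and describes them only.

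Markers of macrophages and monocytes rose over time in both media, as Ccl2 did, while Ccl9 rose in medium and differed by 0.06 with IFN-γ. Their summed intensity over 15 measured genes ran from 2561 to 2717 in medium at 4 hours and from 5501 to 6489 in medium at 16 hours. With IFN-γ it ran from 1875 to 1966 at 4 hours and from 3910 to 4827 at 16 hours, below medium at each time without overlap. In medium 11 of the 15 rose and 1 fell, Spic, and with IFN-γ 9 rose and 1 fell. Between IFN-γ and medium at 16 hours 1 of 15 fell, Cd14, or 5 with the block (Cd14, Spic, Lyz2, Mrc1 and Itgam). Mrc1 lay below the antisense level in all groups, so the size of its difference is uncertain. Of the 15 markers, 12 had a group mean above that level. The 15 IFN-γ differences at 16 hours ran from -1.08 for Cd14 to 0.30 for C1qb, with a median of -0.36. At 4 hours they ran from -0.83 for Lyz2 to 0.42 for Fcgr1, with a median of -0.10. There 0 passed the test, or 3 fell with the block. The summed intensity gives most weight to the brightest of these genes. The part of these cells in the CC chemokine results was not tested. The summed intensity of 8 neutrophil markers, 4563 to 4761 in medium and 4290 to 5071 with IFN-γ at 16 hours, overlapped between these groups. At 4 hours the neutrophil sum was lower with IFN-γ (4684 to 4901) than in medium (5290 to 5346), without overlap. The summed intensity of 6 B cell markers at 16 hours was 7941 to 7974 in medium and 8178 to 8475 with IFN-γ. At 4 hours the B cell sum was 6750 to 7230 in medium and 6320 to 6582 with IFN-γ. Like the macrophage and monocyte sum, it was thus higher at 16 hours in both media. Of these 6 markers 1 rose over time in each medium, or 2 in medium and 5 with IFN-γ in the blocked fit. The part of neutrophils and of B cells was not tested either. The summed intensity of 10 markers of CD8+ dendritic cells was lower at 16 hours, against the direction of Ccl2. In medium it lay between 4346 and 4546 at 4 hours and between 3453 and 3660 at 16 hours. With IFN-γ it lay between 4789 and 5035 and then between 3637 and 4266. Over time 1 of the 10 fell in each medium and 0 rose, or 5 fell with the block. Between IFN-γ and medium at 16 hours 1 rose, Irf8 (0.82, adjusted p = 0.0158, limma), and 0 fell. With the block Flt3 also fell at 16 hours (-0.47, adjusted p = 0.0386), and Irf8 also rose at 4 hours (0.61, adjusted p = 0.00892). Irf8 is bright and part of the summed intensity, so the sum is not a measure of cell number alone. The part of these dendritic cells in the CC chemokine results was likewise not tested.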

How the data were processed

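RNA of 8 samples in 4 groups was measured on Affymetrix MG-U74Av2 arrays, with about 10 µg of total RNA per target, per the labels' protocols. The authors deposited intensity values per probe set on a linear scale (2.65 to 12523). RMA is named in the submitters' processing notes; its settings are not given in the sources used here. Log2 was taken of these values, with no pseudocount and no further normalization. The 66 control probe sets among 12488 took no part in any test. Symbols came from the platform annotation (10833 probe sets with 1 symbol, 396 with several, 1193 unlisted and unnamed here), and all 8 members matched RefSeq by gene number.

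Groups and replicate numbers came from the sample titles. Limma 3.58.1 in R 4.3.3 fitted the 4 group means over all 8 arrays (lmFit, contrasts, eBayes, two-sided), with Benjamini-Hochberg adjustment over 12422 probe sets in each of 5 comparisons and calls at 0.05. Gene lists used the brightest probe set of a gene. All 8 members were described. From each list up to 4 called genes per comparison with the smallest p were to be named, and the likeness and motif rules are given beside their results; values of genes so named are also given for comparisons in which they did not pass. The members and lists were chosen with earlier results of these data known.

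The difference between array 2 and array 1 correlated between groups with r between 0.367 and 0.740 in 6 pairs of groups. Equal numbers were therefore taken as pairs in the blocked fit, which no label states. The main fit, without the block, did not use this pairing. For the 8 genes, blocked values stand beside each result whose call they change. The fit without the block was run on simulated data with independent noise on each array, which lack the correlation between groups given above. That run covers neither the blocked fit nor the difference of effects. A result on a further motif is not reported here. The alternatives tried were the block, a filter on the dimmest 40% of probe sets, quantile normalization, centring on the median, a trended and robust prior, each array left out, a threshold of 0.01, a floor at the antisense controls and a fit of the 4 arrays compared. Leaving out both 16-hour arrays of number 1 was added after seeing the data.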

Additional observations from a re-analysis of the deposited data

Results flagged for a closer look

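The effect of IFN-γ on Ccl9 differed between the times when the difference itself was tested in the fit blocked on replicate number. The effects were -0.53 at 4 hours and -1.83 at 16 hours on the log2 scale, and their difference was -1.30 (SE 0.15), lower in both numbered pairs of arrays, with an adjusted p of 0.00852 by limma with the block and 0.158 without it. Over all alternatives its adjusted p ran from 0.000749 to 1.0.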

How the results depend on the processing

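The numbers of CC chemokines called depended most on the pairing. In the fit with the replicate block the counts were 1 at 4 hours and 2 at 16 hours for IFN-γ against medium, 5 over time in medium, 4 over time with IFN-γ and 1 for the difference of the IFN-γ effects, against 0, 1, 3, 2 and 0 without it. Among the 8 genes the block changed no other call than those given beside the results. Over time with IFN-γ the count was 1 with median centring and 1 when only the 4 IFN-γ arrays were fitted, with Ccl2 lost in both, and 0 at a threshold of 0.01. With a floor at the antisense controls it was 1 for the difference of effects (Ccl9, adjusted p = 0.000749), and Ccl7 and Ccl12 gave no value there or without the dimmest 40% of probe sets. The cause of these shifts was not tested. Leaving out 1 array at a time gave 0 to 0 calls at 4 hours, 1 to 1 at 16 hours, 1 to 4 over time in medium (1 without array 1 of medium at 4 hours), 0 to 3 over time with IFN-γ (0 if a 4-hour IFN-γ array was missing, 1 if a 4-hour medium array was missing) and 0 to 0 for the difference of effects. Over all probe sets the counts were 32, 32, 531, 263 and 0, with ranges of 8 to 67, 10 to 38, 73 to 923, 27 to 708 and 0 to 0.

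Differences that changed sign when 1 array was left out were all uncalled. For IFN-γ at 4 hours they ran from -0.16 to 0.03 for Ccl3, -0.11 to 0.11 for Ccl4, -0.08 to 0.13 for Ccl5 and -0.43 to 0.06 for Ccl6. At 16 hours they ran from -0.57 to 0.09 for Ccl2, -0.03 to 0.11 for Ccl4, -0.38 to 0.09 for Ccl6 and -0.20 to 0.28 for Ccl7. Over time they ran from -0.04 to 0.44 for Ccl6 in medium, and with IFN-γ from -0.01 to 0.48 for Ccl6 and -0.02 to 0.14 for Ccl9. For the difference of effects they ran from -0.07 to 0.15 for Ccl4, -0.20 to 0.01 for Ccl5, -0.21 to 0.29 for Ccl6 and -0.41 to 0.07 for Ccl7. Without both 16-hour arrays of number 1, the Ccl6 difference over time in medium was -0.04, and the adjusted p of Ccl12 over time with IFN-γ was 0.0518. A trended and robust prior changed 0 of 40 results for single genes. With 2 arrays per group and Ccl7 and Ccl12 below the antisense controls, small differences could not be resolved.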
